A study of Mus musculus with 36 samples.

Results

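The Wnt ligands Wnt4, Wnt5a, Wnt5b, Wnt7b, Wnt11, Wnt6, Wnt2b and Wnt9b were followed across doses of a Wnt pathway activator and across removals of the pathway's own effectors in cultured mouse nephron progenitor cells (NPCs). The 8 genes were chosen by name, as the entries of 3 tables of normalized counts whose Ensembl identifiers belong to these symbols, out of 30125 genes listed in at least 1 table. Of the 8, 6 passed the filter for testing in the wild-type table, 4 in the β-catenin table and 3 in the Tcf/Lef table. Wnt2b was listed in all 3 tables but passed in none, and Wnt9b was listed in the Tcf/Lef table alone.

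RNA was sequenced from 36 libraries of primary NPCs, the mesenchymal cells of the embryonic kidney that form nephrons, enriched by magnetic depletion of other cells and grown in nephron progenitor expansion medium (NPEM). The medium held the GSK3β inhibitor CHIR99021 (CHIR), which stabilises β-catenin, at 0 µM (no CHIR), 1.25 µM (low CHIR, the maintenance dose) or 5 µM (high CHIR, the inducing dose). Mice were Swiss Webster or C57Bl/6, the strain and sex behind each library are not given, and the replicates are separate samples of a group whose origin in separate cultures or animals is not stated, so p-values measure the spread between these samples.

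Wild-type NPCs were not transfected and had 3 libraries at each of the 3 doses, grown for 24 h in the dose. In the β-catenin table, each of 8 groups had 2 libraries. NPCs with both Ctnnb1 alleles conditional (labelled B-catenin_c_c) received mCherry mRNA with Cre mRNA (Cre-mediated removal) or without it (no Cre). NPCs of the genotype Cas9-eGFP, which carry Cas9 in the controls too, received mCherry mRNA with a guide RNA (sgRNA) against GFP as a control or with sgRNAs against Ctnnb1 (Cas9-mediated removal). These cells spent 24 h in low CHIR, then 24 h in low or high CHIR, and mCherry-positive cells were sorted. The Tcf/Lef table held Cas9-eGFP NPCs given GFP sgRNA (3 libraries at each of low and high CHIR) or sgRNAs against all of Tcf7l1, Tcf7l2, Tcf7 and Lef1, the quadruple knockout (QKO, 2 libraries in low and 3 in high CHIR), with 48 h in low CHIR before the 24 h in the dose. Removal by transfection acts in a pool of cells, and the share of cells edited is not measured here. By immunostaining, the study reported β-catenin protein as lower, with some signal left, in transfected cells after Cre and after Ctnnb1 sgRNA. It also reported each Tcf/Lef protein as lower with guides against that factor alone, with the smallest loss for Tcf7.

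Wnt proteins are secreted signals that are lipid-modified by Porcn, carried to the cell surface by Wls and bound by Frizzled receptors with the co-receptors Lrp5 and Lrp6. In canonical signalling the receptor complex blocks GSK3β, β-catenin accumulates and activates genes through Tcf/Lef factors, whereas other Wnt proteins act through receptors such as Ror2 and Ryk without β-catenin. In the kidney, Wnt9b from the ureteric epithelium signals to NPCs, and Wnt4 is switched on in induced NPCs and is required for them to become epithelium.

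The places of the genes are given in GRCm38 from the GENCODE annotation. Wnt4 (ENSMUSG00000036856) lies at chr4:137277489-137299726 on the plus strand. Wnt5a (ENSMUSG00000021994) lies at chr14:28504750-28527448, plus strand, and Wnt5b (ENSMUSG00000030170) at chr6:119432531-119544347, minus strand. Wnt7b (ENSMUSG00000022382) lies at chr15:85535437-85582473, minus strand, and Wnt11 (ENSMUSG00000015957) at chr7:98835112-98855195, plus strand. Wnt6 (ENSMUSG00000033227) lies at chr1:74771892-74785322, plus strand, Wnt2b (ENSMUSG00000027840) at chr3:104945272-104961921, minus strand, and Wnt9b (ENSMUSG00000018486) at chr11:103727364-103749821, minus strand. The library kit keeps no strand. Wnt5a, Wnt5b, Wnt6, Wnt7b and Wnt11 are overlapped by genes on the opposite strand (Gm2670, Fbxl14, Gm29539, AU022754 and Gm8398), and Wnt2b by Gm43846 on its own strand. Per the study's methods, only reads that were unambiguous and aligned uniquely were counted. The overlaps are of whole gene spans, and whether exons overlap or counts were affected was not tested. Wnt4 and Wnt9b are overlapped by no annotated gene.

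Promoter sequences from RefSeq (GRCm38.p6) were matched by symbol for 6 of the 8 ligands, with 9 start sites among them. They are shown for the ligand that responded most to CHIR and for both ligands with a Tcf/Lef-type motif, because Tcf/Lef factors are what the QKO removes. Each is written 5′ to 3′ on the strand of its gene, without annotated exon bases. Capitals mark the motif CTTTGAT, which was searched on both strands and reads ATCAAAG on the other.
Wnt4, chr4:137277385-137277488, plus strand: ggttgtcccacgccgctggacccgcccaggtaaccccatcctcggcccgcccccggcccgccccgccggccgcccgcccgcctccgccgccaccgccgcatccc
Wnt11, chr7:98834862-98835111, plus strand: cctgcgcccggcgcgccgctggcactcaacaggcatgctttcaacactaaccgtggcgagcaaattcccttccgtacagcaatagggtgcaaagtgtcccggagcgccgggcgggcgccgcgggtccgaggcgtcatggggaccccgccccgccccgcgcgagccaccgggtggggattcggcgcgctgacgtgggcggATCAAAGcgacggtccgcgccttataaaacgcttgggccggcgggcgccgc
Wnt5b, chr6:119449387-119449636, minus strand: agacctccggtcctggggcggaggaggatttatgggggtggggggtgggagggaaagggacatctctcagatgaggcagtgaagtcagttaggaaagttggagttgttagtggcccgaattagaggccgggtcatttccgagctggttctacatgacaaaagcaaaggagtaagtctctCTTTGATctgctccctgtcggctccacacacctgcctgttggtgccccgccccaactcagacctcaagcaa
The motif stood 44 bases before this start of Wnt11, which is 1 of 2 Wnt11 starts. It stood 64 bases before this start of Wnt5b, which is 1 of 3 Wnt5b starts and lies inside the gene. The windows of the other starts of both genes held no match. The 250-base window before the RefSeq start of Wnt4, which reaches into annotated exon, was 85.2% G or C and held no match. Among all 32851 RefSeq windows of 250 bases, 1053 (3.21%) held the motif, so a match in 2 of 9 ligand windows is a description of these letters only.

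Reads recovered from the normalized counts came to between 13651129 and 76071568 per wild-type library, between 14537850 and 27838106 in the β-catenin table and between 13089780 and 20152719 in the Tcf/Lef table. The third wild-type library in high CHIR stood apart from its group. It held 3638 normalized counts of the canonical target Axin2 against 538 and 433 in the other two, and the summed early nephron epithelium markers were 4571 there against 26753 and 28965. Levels and fold changes that rest on it are therefore also given without it. Ctnnb1 RNA was lower with Ctnnb1 sgRNA than with GFP sgRNA in high CHIR (log2 fold change −0.89, adjusted p = 0.0429, limma), and at 1039.6 to 1652 against 2521 to 3397 normalized counts over both doses. Ctnnb1 RNA did not pass the test after Cre (log2 fold change −0.33 in low and 0.06 in high CHIR). Of the genes targeted in the QKO, Tcf7 was lower in high CHIR (log2 fold change −1.64, adjusted p = 0.0175), and Lef1 stood at 255 to 513 against 1144 to 2743 (adjusted p = 0.131). Both genes are also feedback targets of canonical signalling, so editing and a lower CHIR response cannot be told apart in these values. Values of Tcf7l1 and Tcf7l2 are not given here. Counting covers whole genes, so RNA levels do not measure frameshifts or protein. The NPC markers Six2 and Cited1, which define the labelled cell type, stood at 1162 to 3454 and 3836 to 12223 in the low CHIR libraries of both transfected tables.

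A change is called where limma across all tested genes gave an adjusted p (Benjamini-Hochberg) below 0.05 with a log2 fold change of 0.5 or more in size, on log2(normalized count + 1), a scale that understates the change of low genes. An exact permutation test of groups this small cannot reach that threshold.

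Per kb of exon, Wnt5b had the highest level of the ligands without induction, and Wnt4 had the highest in every group in high CHIR. In wild-type NPCs in no CHIR the mean levels, in normalized counts per kb of exon, ran from Wnt5b (31.7 ± 8.12, SD, n = 3) through Wnt5a (14.8), Wnt7b (11.6), Wnt4 (6.40), Wnt11 (2.12) and Wnt2b (1.67) to Wnt6 (1.24). Wnt5a overlapped Wnt7b over libraries, and Wnt11, Wnt2b and Wnt6 overlapped each other in turn. In low CHIR, Wnt5b (45.7 ± 5.38) overlapped Wnt4 (32.0 ± 15.2), which overlapped Wnt5a (19.5 ± 1.97). In high CHIR, Wnt4 (1104 ± 1337) overlapped Wnt5b (187 ± 191) through the third library alone. Without it they stood at 332 ± 26.5 and 77.0 ± 24.8 (n = 2) and did not overlap. Wnt4 made up 9.22% of the summed mean ligand level per kb in no CHIR, 28.8% in low CHIR and 72.0% in high CHIR, or 75.4% there without the third library.

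**Figure D1:**
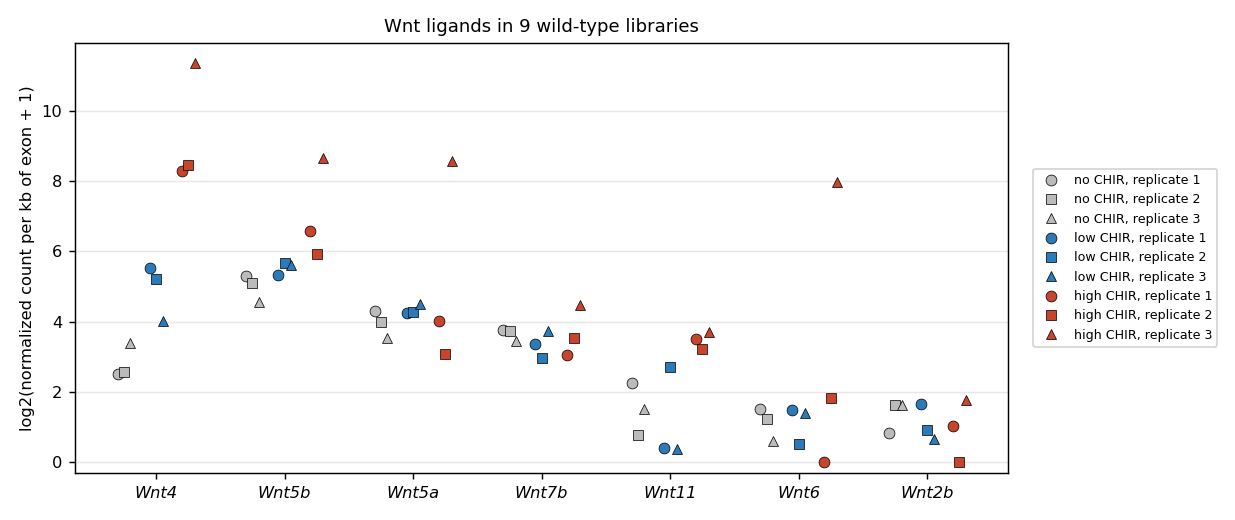
Levels of the 7 ligands listed in the wild-type table, as log2(normalized count per kb of exon + 1), in each of 9 libraries. Grey points are no CHIR, blue low CHIR and red high CHIR. The third high CHIR library (red triangles) lies above the other two for Wnt4, Wnt5b, Wnt5a and Wnt6.

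Wnt4 rose with the dose of CHIR in wild-type NPCs. Its normalized counts were 19.9, 20.5 and 40.2 in no CHIR, 188, 151 and 63.5 in low CHIR, and 1315, 1473 and 11108 in high CHIR. No library of 1 dose overlapped those of another. High CHIR exceeded low CHIR by a log2 fold change of 4.50 (SE 0.74, adjusted p = 0.00358), and by 3.50 (adjusted p = 0.000296) without the third high CHIR library. Wnt4 was the 1 call among 6 tested ligands, against 10.4% of 17411 genes called. High CHIR exceeded no CHIR by 6.72 (adjusted p = 0.00018), or by 5.72 without that library. With Wnt5b, 2 of 6 ligands were called there, against 23.4% of all genes.

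Between no and low CHIR, none of the 6 tested ligands was called by limma, edgeR or DESeq2, against 4.97% of all genes by limma, and 1 ligand, Wnt4, had an unadjusted p under 0.05. The Wnt4 log2 fold change of no against low CHIR was −2.21 (SE 0.74, adjusted p = 0.114) although its libraries did not overlap. It passed with an adjusted p of 0.0115 when only the libraries of these doses were fitted, the lowest over 7 other settings, whose highest was 0.159. DESeq2 gave no p-value for Wnt4, Wnt5a or Wnt6 in the wild-type table.

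Wnt4 also rose from low to high CHIR in each set of transfected control cells. Without Cre, Wnt4 stood at 7.77 and 23.8 normalized counts in low CHIR and at 5798 and 5029.6 in high CHIR. With GFP sgRNA in the same table it stood at 10.9 and 8.66 in low and at 5135 and 5973 in high CHIR. In the GFP sgRNA cells of the Tcf/Lef table it stood at 24.5, 22.7 and 31.1 in low and at 5906, 2331 and 2663 in high CHIR. Low and high CHIR libraries lay far apart in all 3 control sets, with log2 fold changes of 8.52 (SE 0.44, adjusted p = 2.09e-07), 9.01 (SE 0.44, adjusted p = 3e-07) and 6.95 (SE 0.32, adjusted p = 2.25e-07). With GFP sgRNA in the β-catenin table the low CHIR mean (9.79) lay below the filter of 10 normalized counts, so that rise is a description. Levels are not compared between tables, which were normalized separately. Wnt4 was the 1 call among 4 tested ligands without Cre (8.05% of 16780 genes) and with GFP sgRNA (7.51%), and 1 of 2 calls among 3 in the Tcf/Lef table (14.9% of 15878 genes). In high CHIR it made up 93.8%, 94.6% and 92.2% of the summed ligand level per kb.

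**Figure D2:**
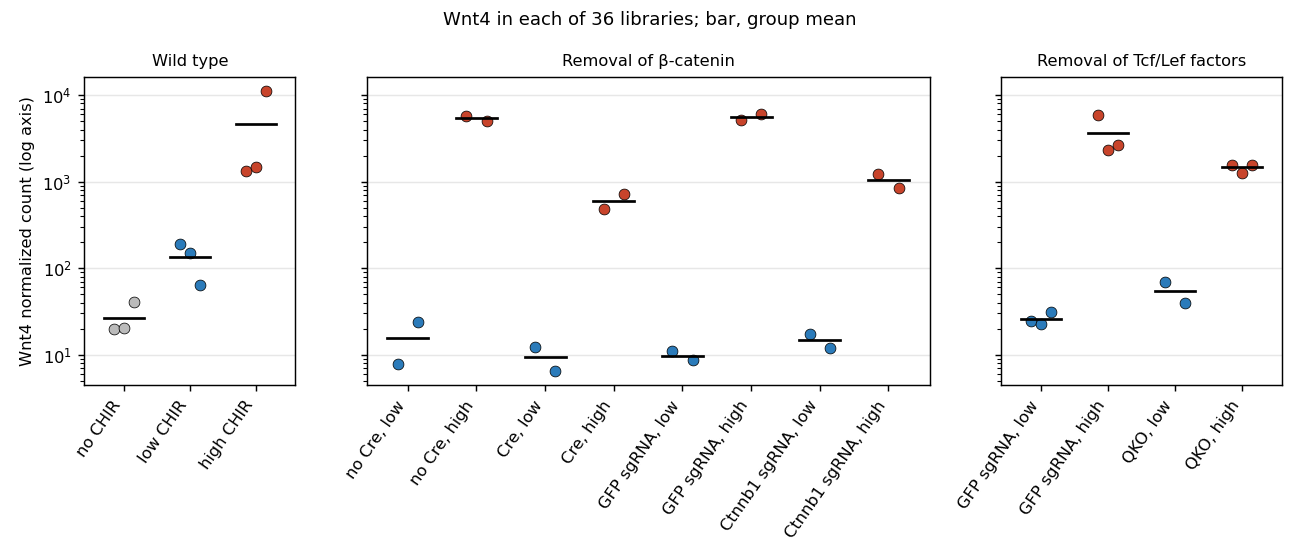
Normalized counts of Wnt4 on a log axis in each of 36 libraries, by group; bars are group means. Every library in high CHIR lies above every low CHIR library of its own table, and high CHIR libraries with β-catenin removed (479 to 1240.4) lie below their controls (5029.6 to 5973).

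Removal of β-catenin lowered Wnt4 in high CHIR, and Wnt4 still exceeded its level in low CHIR. With Cre, Wnt4 stood at 479 and 720.04 normalized counts in high CHIR, 11.1% of the no Cre mean. With Ctnnb1 sgRNA it stood at 1240.4 and 847, or 18.8% of the GFP sgRNA mean. Neither removed group overlapped its control. The log2 fold change was −3.20 (SE 0.44, adjusted p = 0.000417) for Cre-mediated and −2.43 (SE 0.44, adjusted p = 0.00565) for Cas9-mediated removal. Leaving out the second GFP sgRNA library (−2.32, adjusted p = 0.0751) or the second Ctnnb1 sgRNA library (−2.16, adjusted p = 0.1) in high CHIR ended the call for Cas9. Wnt4 was the 1 call among 4 tested ligands in both, against 8.65% of all genes for Cre and 5.09% for Cas9.

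In low CHIR, Wnt4 was low in every group of the β-catenin table, with group means from 9.43 to 15.8 normalized counts, where 3 reads were worth 2.75 to 3.48, and it passed the filter through the high CHIR groups. It stood at 12.4 and 6.44 normalized counts with Cre and at 17.4 and 11.9 with Ctnnb1 sgRNA. The first overlapped its control, and the second lay above the 10.9 and 8.66 of its own. The log2 fold changes were −0.56 (95% interval −1.51 to 0.39) and 0.52 (−0.43 to 1.47). None of the 4 tested ligands was called in low CHIR with Cre or Ctnnb1 sgRNA by limma, edgeR or DESeq2, and none had an unadjusted p under 0.05. Of all genes, 0.328% were called for Cre and 0.0536% for Cas9 by limma. DESeq2 gave no p-value for Wnt7b with Ctnnb1 sgRNA.

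Within removed cells, high CHIR still exceeded low CHIR for Wnt4, by a log2 fold change of 5.88 (SE 0.44, adjusted p = 6.96e-05) with Cre and 6.06 (SE 0.44, adjusted p = 1.6e-05) with Ctnnb1 sgRNA. The low CHIR means with Cre (9.43) and with GFP sgRNA (9.79) lay below the filter of 10 normalized counts. The rise with Cre and both differences of CHIR response given below are therefore a description. Wnt4 was again 1 of 4 ligands called, against 0.292% and 0.763% of all genes. With only the Cre libraries fitted the adjusted p was 0.0816, the highest over 8 other settings, whose lowest was 2.58e-33. The CHIR response differed from that of controls by −2.64 on the log2 scale with Cre (95% interval −3.98 to −1.30, adjusted p = 0.0721) and by −2.96 with Ctnnb1 sgRNA (−4.30 to −1.61, adjusted p = 0.0604). Neither difference passed the threshold over all genes, of which 0.995% and 0.518% were called. With the replicate number as a block, which pairs libraries within each experiment, both passed (adjusted p = 0.0211 and 0.0172), against 3.13% and 1.4% of all genes called with the block. Without the block, none of the other 3 tested ligands had an unadjusted p under 0.05 for either. For Cre, edgeR also called no ligand and DESeq2 called Wnt4. For Ctnnb1 sgRNA, edgeR and DESeq2 each called Wnt4. Over 8 other settings the adjusted p of the difference lay between 0.00514 and 0.297 for Cre and between 0.000129 and 0.0682 for Ctnnb1 sgRNA. Without the second no Cre library in low CHIR the Cre difference passed (−3.39, adjusted p = 0.0109).

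In the QKO in high CHIR, Wnt4 libraries stood at 1571, 1254 and 1553 normalized counts, 40.2% of the GFP sgRNA mean, and single libraries compared between groups gave 21.2% to 67.4%. No QKO library reached the lowest control. The log2 fold change was −1.19 (SE 0.32, 95% interval −1.89 to −0.50) with an adjusted p of 0.0792, and 0.0154 with the replicate number as a block, which pairs the libraries of this table and called 7.44% of all genes. Over 8 other settings the adjusted p lay between 0.00183 and 0.0806. None of the 3 tested ligands was called without the block, against 2.54% of all genes. The unadjusted p of Wnt4 alone was under 0.05, and edgeR (adjusted p = 0.046) and DESeq2 each called it.

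In low CHIR, Wnt4 stood at 68.5 and 40.1 normalized counts in the QKO, above all 3 control libraries. The log2 fold change was 0.99 (SE 0.36, 95% interval 0.21 to 1.77, unadjusted p = 0.0169, adjusted p = 0.904). No ligand was called by limma, edgeR or DESeq2, and 0.0063% of all genes were called by limma. Within QKO cells Wnt4 rose by 4.76 from low to high CHIR (SE 0.36, adjusted p = 3.79e-05), the 1 call among 3 ligands against 2.54% of all genes. The response differed from that with GFP sgRNA by −2.19 (95% interval −3.23 to −1.14, adjusted p = 0.152). Of all genes 0.126% were called for that difference, and with the block Wnt4 was among the calls (−2.04, adjusted p = 0.0389), which made up 0.857% of all genes. DESeq2 called it and edgeR did not.

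Markers of other states also had different means after the removals in high CHIR. The summed early nephron epithelium markers (Lhx1, Jag1, Pax8, Fgf8, Cdh6 and Cdh1) ran from 14034 to 15215 normalized counts without Cre in high CHIR and from 2813 to 3206 with Cre. They ran from 17482 to 18951 with GFP sgRNA and from 4494 to 6244 with Ctnnb1 sgRNA. In the QKO they overlapped the control, at 10099.9 to 20364.5 against 16039 to 34580 with GFP sgRNA. Of the 6 markers, 5 had a lower mean after each removal, the QKO included. In wild-type NPCs in high CHIR their sum did not follow Wnt4. The third library held the most Wnt4 (11108 normalized counts) and the lowest sum (4571, against 26753 and 28965). Stromal markers had a higher mean in 7 of 8 after Cre and Ctnnb1 sgRNA and in 6 of 8 in the QKO. Their sums in high CHIR overlapped between QKO (1226 to 8203) and GFP sgRNA (1054 to 4120). In the β-catenin table they also overlapped between Ctnnb1 sgRNA (12266 to 19527) and GFP sgRNA (4775 to 14289). The sums with Cre (7262 to 12681.5) and without it (5039 to 6147) did not overlap. The part of these markers in the Wnt4 differences was not tested. In bulk RNA, fewer cells with Wnt4 and less Wnt4 RNA per cell cannot be told apart.

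**Figure D3:**
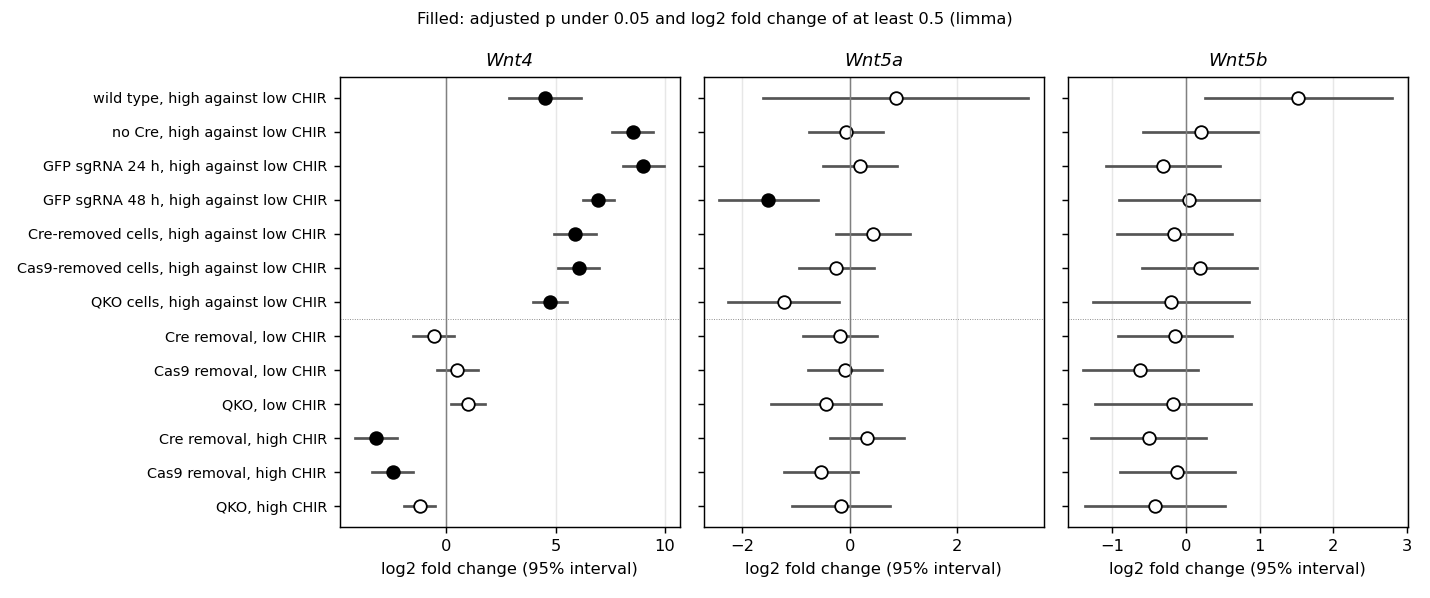
Log2 fold changes of Wnt4, Wnt5a and Wnt5b (points) with 95% intervals (lines) in 13 comparisons, on a separate horizontal scale for each gene; filled points were called by limma. Wnt4 was called in all 7 comparisons of high with low CHIR and after both removals of β-catenin in high CHIR, Wnt5a in 1 comparison and Wnt5b in none of those drawn.

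Wnt5a, a ligand known mainly for signalling without β-catenin, was not called in wild-type NPCs. It stood at 147, 117 and 82.7 normalized counts in no CHIR, 142, 145 and 170.07 in low CHIR, and 119, 58.6 and 2977 in high CHIR. The third high CHIR library alone was far above the rest. The log2 fold change of high against low CHIR was 0.86 (SE 1.11, adjusted p = 0.692), and −0.86 (adjusted p = 0.146) without that library. Against no CHIR it was 1.29, and −0.42 without it.

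Wnt5a fell from low to high CHIR in the GFP sgRNA cells of the Tcf/Lef table. It stood at 314, 335 and 208 normalized counts in low CHIR and at 169.8, 112 and 47.8 in high CHIR, without overlap. The log2 fold change was −1.52 (SE 0.42, adjusted p = 0.0306, and 0.00207 with the block). The call was lost without the first (−1.43, adjusted p = 0.099) or second (−1.39, adjusted p = 0.111) low CHIR library. It was also lost without the second (−1.62, adjusted p = 0.0654) or the third (−1.01, adjusted p = 0.0866) high CHIR library, and with only the groups compared in the fit (adjusted p = 0.0575, the highest over 8 other settings). In the QKO, Wnt5a stood at 234 and 179.8 in low CHIR and at 137, 73.7 and 64.6 in high CHIR. Its log2 fold change within QKO cells was −1.23 (SE 0.47, adjusted p = 0.236, and 0.0385 with the block). The responses with and without the 4 factors differed by 0.28 (95% interval −1.10 to 1.66).

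Wnt5a was not called in the β-catenin table. It stood at 122 and 148 in low and 112 and 147 in high CHIR without Cre, and at 124 and 219.7 in low and 212 and 169 in high CHIR with GFP sgRNA. Libraries of the doses overlapped in both, and the log2 fold changes were −0.07 (95% interval −0.76 to 0.63) and 0.20 (−0.50 to 0.89). After Cre it stood at 98.3 and 143 in low and at 162 and 160.3 in high CHIR. With Ctnnb1 sgRNA it stood at 128 and 188 in low and at 131 and 130.3 in high CHIR. In high CHIR the log2 difference from the control was 0.32 (−0.37 to 1.01) with Cre and −0.53 (−1.23 to 0.16) with Ctnnb1 sgRNA, neither past the threshold.

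Most stromal markers had lower means in high than in low CHIR in each of the 4 control sets, whether or not Wnt5a was called. In the Tcf/Lef table, where it was, their summed level went from between 3258 and 8647 normalized counts in low CHIR to between 1054 and 4120 in high CHIR with GFP sgRNA, with 6 of 8 means lower. The sum was 2894 and 15430 in the QKO in low CHIR and 1226 to 8203 in high CHIR. Where Wnt5a was not called, means were lower for 8 of 8 in wild-type NPCs (sums of 11230 to 16868 in low and 3871 to 11484 in high CHIR), 6 of 8 without Cre (5075 and 11017 in low, 5039 and 6147 in high) and 7 of 8 with GFP sgRNA in the β-catenin table (8918 and 21346 in low, 4775 and 14289 in high). Its part in the Wnt5a change was not tested.

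**Figure D4:**
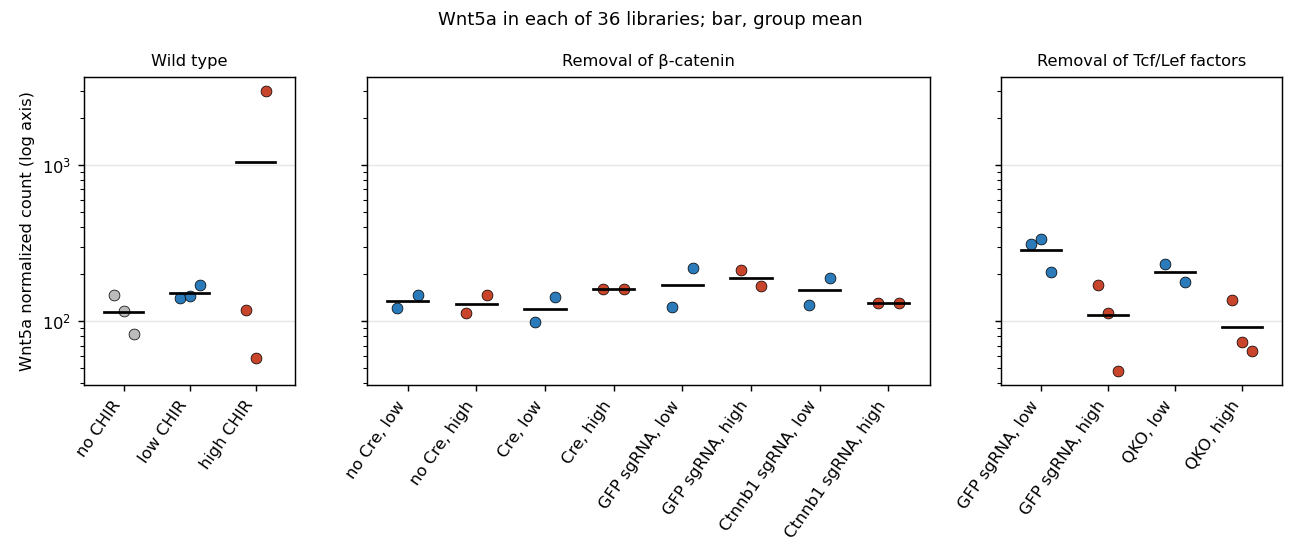
Normalized counts of Wnt5a on a log axis in each of 36 libraries, by group; bars are group means. High CHIR libraries lie below low CHIR libraries with GFP sgRNA and in the QKO in the Tcf/Lef table, overlap them in both control sets of the β-catenin table, and include 1 wild-type library at 2977.

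Wnt5b, the closest relative of Wnt5a, stood at 102, 89.3 and 60.3 normalized counts in no CHIR, 105, 132 and 127 in low CHIR, and 251, 158 and 1078 in high CHIR in wild-type NPCs. Libraries of the 3 doses did not overlap. High CHIR exceeded no CHIR by a log2 fold change of 2.08 (SE 0.57, adjusted p = 0.0239), and by 1.27 (adjusted p = 0.0111) without the third high CHIR library. The call was lost without the second (2.14, adjusted p = 0.0582) or the third (1.86, adjusted p = 0.0911) no CHIR library, and with only the groups compared in the fit (adjusted p = 0.0642). Over 8 other settings the adjusted p lay between 7.4e-05 and that value. Against low CHIR the log2 fold change was 1.53 (SE 0.57, adjusted p = 0.126), and over 8 other settings the adjusted p lay between 0.00389 and 0.2. It was 0.72 (adjusted p = 0.18) without the third high CHIR library and 2.10 (adjusted p = 0.0334) without the second.

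In transfected cells Wnt5b was not called in any comparison. It stood at 171 and 102 in low and 116 and 199 in high CHIR without Cre. With GFP sgRNA it stood at 153 and 154 in low and 110.2 and 139 in high CHIR in the β-catenin table. In the Tcf/Lef table it stood at 228, 134 and 69.2 in low and 239.8, 116 and 82.9 in high CHIR. The log2 fold changes for the doses were 0.20 (95% interval −0.57 to 0.98), −0.31 (−1.09 to 0.47) and 0.04 (−0.90 to 0.99). In high CHIR the log2 difference from the control was −0.50 (−1.28 to 0.28) with Cre, −0.11 (−0.89 to 0.66) with Ctnnb1 sgRNA and −0.41 (−1.36 to 0.54) in the QKO. It remained second in level per kb behind Wnt4 and above Wnt5a in every transfected group in high CHIR, without overlap.

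Wnt7b, known from the collecting duct, was called in no comparison. It stood at 61.4, 60.01 and 49.2 normalized counts in no CHIR, 46.0, 33.2 and 59.9 in low CHIR, and 35.9, 51.7 and 104 in high CHIR in wild-type NPCs. Those groups overlapped, with a log2 fold change of high against low CHIR of 0.35 (SE 0.40, adjusted p = 0.65) and of −0.07 without the third high CHIR library. In the β-catenin table it lay between 8.24 and 31.1 in all 16 libraries. With GFP sgRNA it went from 23.8 and 26.0 in low to 8.24 and 15.3 in high CHIR (log2 fold change −1.08, SE 0.55, adjusted p = 0.29). With Ctnnb1 sgRNA in high CHIR it stood at 21.2 and 27.3, a log2 difference of 1.03 (SE 0.55, adjusted p = 0.331). In the Tcf/Lef table it held at most 5.19 normalized counts and was at 0 in 4 of 11 libraries.

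Wnt11, a ligand of the ureteric tips and the carrier of 1 of the motifs shown above, was tested in wild-type NPCs alone. It stood at 15.5, 2.93 and 7.82 normalized counts in no CHIR, 1.31, 22.8 and 1.198 in low CHIR, and 42.6, 34.9 and 49.5 in high CHIR. The high CHIR libraries lay above all others. It passed the filter through high CHIR alone, with a mean of 42.3 there against 8.77 in no and 8.43 in low CHIR, so its fold changes are a description. The log2 fold change of high against low CHIR was 3.12 (SE 0.90, adjusted p = 0.0547), with 2.999 without the third high CHIR library and 4.25 without the second low CHIR library. Against no CHIR it was 2.37 (SE 0.90, adjusted p = 0.0829), with 2.25 without the third high CHIR library. In the other tables it held at most 23.9 and 11.5 normalized counts.

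Ureteric epithelium markers were also higher in sum in high CHIR, though not every mean was. The 6 listed (Ret, Hoxb7, Calb1, Gata3, Krt19 and Elf5, with Aqp2 not listed) summed to between 746 and 998 normalized counts in low CHIR and between 2583 and 6484 in high CHIR in wild-type NPCs, with 5 of 6 means higher. Endothelial markers summed to between 20.4 and 39.4 in low CHIR and between 82.3 and 793 in high CHIR, with 4 of 6 means higher. Without Cre the ureteric sum was 403 to 556 in low and 830 to 948 in high CHIR, with 4 of 6 means higher. With GFP sgRNA in the β-catenin table it was 469 to 606 in low and 772 to 893 in high CHIR, with 3 of 6 higher. Endothelial means were higher for 3 of 6 in both, and for 5 of 6 with GFP sgRNA in the Tcf/Lef table. With GFP sgRNA in the Tcf/Lef table the ureteric sum also went from between 351 and 406 in low CHIR to between 882 and 1413 in high CHIR, with Wnt11 at most at 11.5 in that table. Their part in the Wnt11 values was not tested.

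Wnt6, another ureteric ligand, rested on 1 library. It stood at 4.08, 2.93 and 1.12 normalized counts in no CHIR, 3.94, 0.949 and 3.59 in low CHIR, and 0, 5.58 and 551 in high CHIR. Without the third high CHIR library it did not pass the filter, and with it the log2 fold change of high against low CHIR was 2.12 (SE 1.81, adjusted p = 0.523). Against no CHIR it was 2.14 (adjusted p = 0.425), and edgeR called it with 5.86 (adjusted p = 0.0446), the lowest over 7 other settings, whose highest was 0.509. In the other tables Wnt6 held at most 4.604 and 4.89 normalized counts, and 8 of 16 libraries of the β-catenin table were at 0.

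Wnt2b and Wnt9b were too low to pass the filter. Wnt2b, made by kidney stroma, lay between 0 and 10.3 normalized counts in wild-type NPCs, 0.921 and 24.9 in the β-catenin table, and 2.59 and 15.9 in the Tcf/Lef table. Wnt9b, the inducing signal of the ureteric epithelium, lay between 0 and 4.32 normalized counts in the Tcf/Lef table, with at most 3 reads in 8 of 11 libraries. Fitted by limma without the filter, the log2 fold changes of Wnt2b ran from −1.03 to 2.57 over 18 comparisons, with a lowest adjusted p of 0.48, and those of Wnt9b from −1.23 to 1.54 over 5, with a lowest adjusted p of 0.2.

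Genes most like the ligands were sought over all 36 libraries and 14952 genes, by Pearson correlation after the mean of each table was subtracted. For Wnt4 they were AC141471.4 (0.97), Lhfpl2 (0.95) and Psd2 (0.94), with 0.97, 0.94 and 0.94 without the third wild-type library in high CHIR. For Wnt5a they were Stra6 (0.82), Prkce (0.80) and Brap (0.78), with 0.60, 0.51 and 0.52 without that library. For Wnt5b they were Htatsf1 (0.81), Pgap2 (0.81) and Apoe (0.80), with 0.57, 0.67 and 0.54. The libraries share tables, doses and depth, so these values describe the set only.

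Of the 11 other Wnt genes, 8 were listed in at least 1 table, and few passed the filter. In wild-type NPCs 1 of 4 tested was called from low to high CHIR, against 10.4% of all genes. Wnt7a, at 0 in all low CHIR libraries and at 28.0, 39.1 and 863 in high CHIR, was at least 89.5-fold higher against a floor of 3 reads per library. Without the third high CHIR library the bound was 9.69-fold and Wnt7a did not pass the filter. With all libraries it passed through high CHIR alone (mean 310, against 3.46 in no and 0 in low CHIR), so its rise is a description. The list median was a log2 fold change of 0.83, or −0.97 without that library, against 0.01 for all genes. Wnt2, a canonical ligand, fell in control cells of the β-catenin table. Without Cre it went from 54.4 and 58.6 normalized counts to 0 in both high CHIR libraries, at least 19.2-fold lower. With GFP sgRNA it went from 23.8 and 58.4 to 1.499 and 0 (log2 fold change −4.604, SE 0.63, adjusted p = 0.000445). In removed cells in high CHIR it stood at 24.2 and 20.6 with Cre, at least 7.64-fold above no Cre, and at 33.2 and 103 with Ctnnb1 sgRNA (log2 fold change 5.24, SE 0.63, adjusted p = 0.00027). Wnt2 was the 1 call of 2 tested genes in each of these comparisons, and each held with any 1 library left out. Of all genes, 8.05% were called without Cre, 7.51% with GFP sgRNA, 8.65% for Cre and 5.09% for Ctnnb1 sgRNA. The doses and the removals were compared through the same control libraries in high CHIR, so these are not separate results. The list medians were −2.84 and −2.31 for the doses and 1.99 and 2.59 for the removals. With Wnt2 at its bound they were −2.06 without Cre and 1.19 for Cre removal.

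Secretion genes (Porcn, Wls, Vps35 and Snx3) gave few calls. All 4 were tested in every table. Porcn, which attaches the lipid, was the 1 call from low to high CHIR in wild-type NPCs (log2 fold change 1.57, SE 0.33, adjusted p = 0.0121), lost without the third low CHIR library. Wls, the carrier, was the 1 call without Cre (0.66, SE 0.19, adjusted p = 0.0467), lost without the first library of either dose. Of all genes, 10.4% and 8.05% were called in these comparisons. The list medians were 0.21 in both, and no secretion gene was called with GFP sgRNA or after any removal, except that Wls was called with GFP sgRNA in the β-catenin table with the replicate block, against 15.3% of all genes called with it.

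Receptors split by member. Of 16 receptors and co-receptors 15 were tested in each table. From low to high CHIR, 2 rose and 5 fell in wild-type NPCs (list median −0.26), 2 rose and 3 fell without Cre (−0.67), 2 rose and 1 fell with GFP sgRNA (0.02) and 2 rose and 5 fell with GFP sgRNA in the Tcf/Lef table (−0.73), against medians of all genes of 0.01, −0.00, −0.00 and 0.00 and 10.4%, 8.05%, 7.51% and 14.9% of all genes called. The receptors that rose were Fzd6 and Fzd10 each time, and Fzd4 fell in all 4 sets. Fzd6 rose by log2 fold changes of 4.67, 4.19, 3.37 and 3.83, and held with any 1 library left out. Fzd10 rose by 6.53 (5.28 without the third high CHIR library, which held 2176 normalized counts against 152 and 168), 3.58, 3.44 and 3.33, and the call was lost without the first no Cre library in high CHIR or the second GFP sgRNA library of either dose in the β-catenin table. In wild-type NPCs Fzd10 passed the filter through high CHIR, so its rise there is a description. Fzd4 fell by 2.55 (1.52 without the third high CHIR library), 2.54, 1.51 and 2.35. Its call was lost in wild-type NPCs without any 1 of the low CHIR libraries, with edgeR and with only the groups compared in the fit, and in the β-catenin table without the second GFP sgRNA library of either dose. Fzd7 also fell in wild-type NPCs (−1.66), Lrp6 without Cre (−0.79, lost with only the groups compared) and Ror1 in the Tcf/Lef table (−2.15, lost without 4 of 6 libraries, the first and second in low and the second and the third in high CHIR).

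Receptors were also called after removal in high CHIR, in comparisons that share the high CHIR controls with those above. With Cre, 3 receptors were higher and 2 lower than without it, against 8.65% of all genes called. Fzd4 was higher by 2.98 (SE 0.28, adjusted p = 1.93e-05) in every leave-one-out fit. Ror1 was higher by 2.03 and held without the first Cre library alone. Fzd6 was lower by 2.75, lost without the second library of either group, and Fzd10 lower by 2.59, lost without any 1 of the 4. With any 1 library left out the count went from 5 to between 1 and 3. With Ctnnb1 sgRNA, Fzd4 (2.03, adjusted p = 0.000888) and Fzd8 (1.93, adjusted p = 0.0481) were higher, against 5.09% of all genes, and the second was lost without any 1 of the 4 libraries. With the replicate block 4 were called, with Fzd3 and Fzd6 added, against 12.7% of all genes. In the QKO, where 2.54% of all genes were called, Fzd4 was higher by 1.58 (SE 0.18, adjusted p = 0.00107) in every leave-one-out fit and Fzd6 lower by 1.53, a call that held without the third GFP sgRNA library alone. Fzd4 counts were 269 to 416 with GFP sgRNA and 903 to 1004 in the QKO. The list medians were −0.07, −0.04 and −0.12, against −0.02, −0.00 and 0.00 for all genes.

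**Figure D5:**
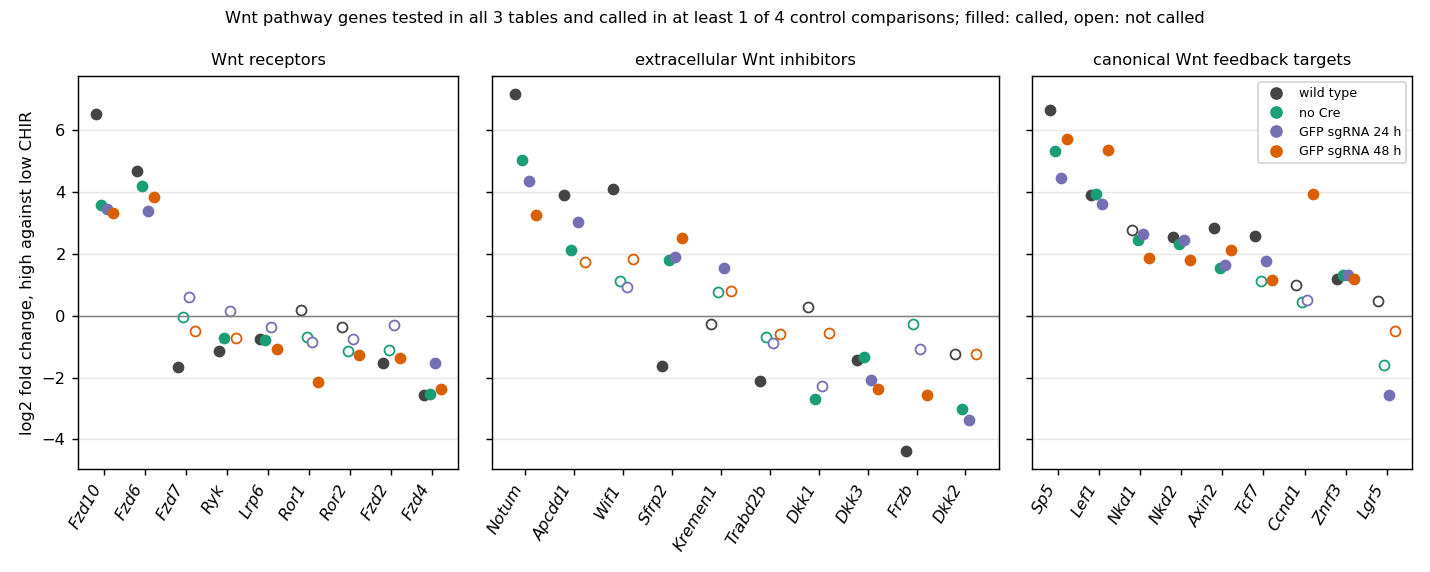
Log2 fold changes of high against low CHIR in 4 control sets for receptors, inhibitors and feedback targets that were tested in all 3 tables and called in at least 1 set; filled points were called by limma. Fzd10, Fzd6, Notum, Sp5 and Lef1 lie above 0 and Fzd4, Dkk3 and Dkk2 below 0 in all 4. Sp5 was at 0 in both no Cre libraries in low CHIR, and its fitted value there is no bound.

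Extracellular inhibitors, which trap or inactivate ligands or block their co-receptors, also split. Of 18, 14 were tested in wild-type NPCs, 12 in the β-catenin table and 11 in the Tcf/Lef table. Of all genes, 10.4% were called from low to high CHIR in wild-type NPCs and 8.05% without Cre. With GFP sgRNA 7.51% were called in the β-catenin table and 14.9% in the Tcf/Lef table. From low to high CHIR, 3 rose and 5 fell in wild-type NPCs (list median −0.01), a count of 8 that was 5 without the first or second low CHIR library and 11 without the third in high CHIR. Without that library the list median was 0.41. Notum, which removes the lipid from Wnt proteins, stood at 133, 72.6 and 5140 normalized counts in high CHIR and rose by 7.18, or by 5.28 without the third library. In wild-type NPCs Notum passed the filter through high CHIR, so this rise is a description. Wif1, which binds Wnt proteins, stood at 546, 388 and 10159 and rose by 4.11, or by 2.62 without the third library. The Wif1 call was lost without any 1 low CHIR library and with only the groups compared. Frzb fell by 4.39 and Sostdc1 by 3.53, or by 2.90 without the third library. Without Cre 3 rose and 3 fell (−0.47), among them Notum (5.02, lost without the second high CHIR library), Apcdd1 (2.13, held without the first high CHIR library alone), Dkk2 (−3.02) and Dkk1 (−2.68, held without the second high CHIR library alone). In the GFP sgRNA cells of that table, there were 4 that rose and 2 that fell (−0.66), with Notum at 4.37 (lost without the second high CHIR library), Apcdd1 at 3.03 (lost without the first), Dkk2 at −3.39 and Dkk3 at −2.09. With GFP sgRNA in the Tcf/Lef table, there were 2 that rose and 2 that fell (0.79), with Notum at 3.26 (lost without the first high CHIR library), Sfrp2 at 2.52 (lost without the first low CHIR library), Dkk3 at −2.38 and Frzb at −2.57, which held in 2 of 6 leave-one-out fits. With the replicate block 8 were called there, with Apcdd1, Kremen1, Sfrp1 and Wif1 added, against 20.9% of all genes.

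In high CHIR, Dkk2, a secreted antagonist that binds Lrp co-receptors, was higher after every removal. It stood at 988 and 1359 normalized counts with Cre against 14.7 and 32.2 without it (log2 fold change 5.67, adjusted p = 2.17e-05). With Ctnnb1 sgRNA it stood at 546 and 1047 against 8.99 and 29.7 (5.43, adjusted p = 5.43e-05). In the QKO it stood at 313, 227 and 195 against 11.5, 9.10 and 9.57 (4.45, adjusted p = 0.00571). No removed library overlapped a control, and each call held with any 1 library left out. In all, 3 inhibitors were higher and 2 lower with Cre (list median 0.22), 3 and 1 with Ctnnb1 sgRNA (0.61), and 2 and 0 in the QKO (0.44). Of all genes, 8.65%, 5.09% and 2.54% were called in these comparisons, which share the high CHIR controls with those above. In the QKO 4 inhibitors were called with the block, with Apcdd1 and Frzb added, against 7.44% of all genes. The others named were Dkk1 (2.50), Notum (−3.21) and Sfrp2 (−1.44) with Cre, Frzb (2.11) and Notum (−2.83) with Ctnnb1 sgRNA, and Dkk3 (2.06) in the QKO. Each of these was lost without at least 2 libraries of its comparison, and Notum with Ctnnb1 sgRNA without any 1 of the 4. In the Cre experiment Notum had means of 0.458 without Cre and 0 with Cre in low CHIR, and 3.94 with Cre in high CHIR. All lie below the filter of 10, so its changes there rest on no Cre cells in high CHIR and are a description.

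Feedback targets of canonical signalling gave the pathway's own readout beside the ligands. From low to high CHIR, 6 of 10 tested rose in wild-type NPCs, with a list median of 2.68, or 1.80 without the third high CHIR library. Of 9 tested elsewhere, 6 rose without Cre (1.53), 7 rose and 1 fell with GFP sgRNA (1.77) and 8 rose in the Tcf/Lef table (1.87). In these sets 10.4%, 8.05%, 7.51% and 14.9% of all genes were called. Lef1 rose by 3.90, 3.95, 3.61 and 5.37 and held with any 1 library left out. The transcription factor Sp5 rose by 6.67 in wild-type NPCs (5.46 without the third high CHIR library), by at least 13.1-fold without Cre (lost without either high CHIR library), and by 4.46 and 5.71 with GFP sgRNA. In the β-catenin table the GFP sgRNA call of Sp5 held without the second low CHIR library alone. Sp5 passed the filter there through the control groups in high CHIR. Its mean was 39.8 without Cre in high CHIR, against 0 without Cre, 0.644 with Cre and 1.08 with GFP sgRNA in low CHIR. Its wild-type means were 0, 2.61 and 539 in no, low and high CHIR. In both tables the changes of Sp5 are therefore a description. Lgr5, a receptor for R-spondins, was the gene that fell (−2.58), lost without the second low or first high CHIR library.

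After removal in high CHIR, 7 of 9 feedback targets were lower with Cre (list median −1.70), between 2 and 6 with any 1 library left out, and 4 were lower with Ctnnb1 sgRNA (−1.35), or 1 to 2, against 8.65% and 5.09% of all genes called in these comparisons. Lef1 was lower by 3.34 and 2.62, the second lost without the first GFP sgRNA or the second Ctnnb1 sgRNA library. Sp5 was lower by 4.07, held without the second Cre library alone, and by 3.88, lost without any 1 library. Both values are a description, because Sp5 passed the filter through the control groups in high CHIR. These comparisons share those controls with the comparisons of doses. In the QKO, where Lef1 and Tcf7 are themselves targeted, 1 was higher (Ccnd1, 1.53) and 1 lower (Tcf7, −1.64), against 2.54% of all genes. Each was called in 2 of 6 leave-one-out fits, and the list median was −0.94. With the block 5 were called, Lef1, Nkd1 and Sp5 added, against 7.44% of all genes. Within QKO cells from low to high CHIR, 4 of 9 rose (0.94), against 2.54% of all genes called. Among them were Ccnd1 (4.77) and Sp5 (3.81, held without the first high CHIR library alone, and lost with edgeR). The receptor Fzd6 rose by 2.32, lost without the first low CHIR library. Kremen1, a Dkk receptor, rose there by 1.78, lost without either low CHIR library, and Fzd2 fell by 1.28, lost without any 1 library. With the block 4 inhibitors were called there, with Dkk2, Dkk3 and Sfrp2 added, against 6% of all genes.

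Within Cre-removed cells no gene of any of these lists was called from low to high CHIR, and within Cas9-removed cells Kremen1 (2.07) and the feedback gene Znrf3 (0.78, lost without any 1 library) were. Of all genes, 0.292% and 0.763% were called. With the block, Fzd7, Apcdd1, Dkk1, Frzb, Lef1 and Lgr5 were also called within Cas9-removed cells, against 2.66% of all genes. In low CHIR no gene of any list was called after Cre, Ctnnb1 sgRNA or QKO, against 0.328%, 0.0536% and 0.0063% of all genes. With the block Fzd2, Ror1, Axin2 and Tcf7 were called after Cre, against 3.06% of all genes. Between no and low CHIR in wild-type NPCs the calls were Dkk3, higher without CHIR by 1.16, and Lef1, lower by 2.02. Each held in 1 of 6 leave-one-out fits, and 4.97% of all genes were called. From no to high CHIR 9 of 10 feedback targets rose, against 23.4% of all genes called. They were led by Sp5 (at least 190.2-fold, or 40.4-fold without the third high CHIR library, all no CHIR libraries at 0) and Lef1 (5.93). Sp5 passed the filter through high CHIR, so its value is a description.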

How the data were processed

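RNA of 36 NPC libraries was prepared with an unstranded low-input kit. Per the study's methods, the authors aligned reads to a joint mouse and human genome, counted them per gene and deposited normalized counts (a signal, divided by DESeq2 size factors) in 3 tables that were normalized separately. Comparison tables, which hold log2 fold changes and p-values, and 50 columns of values that belong to no sample used here were not used. Every value was a whole multiple of what 1 read is worth (tolerance 0.1 reads), so reads were recovered for edgeR and DESeq2 as alternatives. The 27 pairs of libraries within groups held no identical pair.

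Genes whose mean reached 10 normalized counts in a table were tested with limma 3.58.1 (R 4.3.3) on log2(normalized count + 1), all groups of a table in 1 fit, with Benjamini-Hochberg adjustment over the table. Alternatives were other pseudocounts, no filter, TMM, a replicate block, edgeR 4.0.16, DESeq2 1.42.0, a log2 threshold of 1, fitting only the groups compared, and leaving out each library. Deviations of same-numbered libraries were correlated in all 15 pairs of the Tcf/Lef table (0.214 to 0.637). In the β-catenin table they were correlated in all 6 pairs of groups within the Cre (0.334 to 0.518) and within the Cas9 experiment (0.116 to 0.491), and at −0.265 to 0.278 between experiments. Numbers were therefore taken to pair libraries in the Tcf/Lef table and within each experiment, and the block was set so. From each pathway list, up to 2 higher and 2 lower calls with the largest fold change were named, and genes called with the block alone were named after their values were seen. Floors of 3 reads cover counting error only. The ligands and lists were chosen with earlier results of these data known. The list of early nephron epithelium markers was summed without 1 gene, which is not reported here.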

Additional observations from a re-analysis of the deposited data

Results flagged for a closer look

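A test of the difference between CHIR responses flagged 5 values among the pathway genes and none among the ligands themselves. Of all genes, 0.995% were called for the Cre difference, 0.518% for the Ctnnb1 sgRNA difference and 0.126% for the QKO difference. No group had 4 or more libraries, so no library was tested as an outlier.

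Wnt2, a canonical ligand, stood at 47.6 and 66.9 normalized counts in low and at 24.2 and 20.6 in high CHIR with Cre, and at 0 in both high CHIR libraries without it. Its responses differed by 4.55 on the log2 scale (limma, SE 0.89, adjusted p = 0.0245), a value that is no bound because of those zeros, and the call was lost without any 1 of the 8 libraries, with a pseudocount of 5 and with only the groups compared in the fit. Fzd4, a Frizzled receptor, stood at 1622 and 1990.4 in low and at 1599 and 2122 in high CHIR with Cre, against 1185 and 1565 in low and 338 and 161 in high CHIR without it. The responses differed by 2.58 (SE 0.40, adjusted p = 0.00599), called without any 1 of the 8 libraries but not with only the groups compared in the fit. In the QKO the Fzd4 difference was 1.87 (SE 0.27, adjusted p = 0.0288), called in 3 of 11 fits with 1 library left out.

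Dkk2, a secreted antagonist, stood at 327 and 376 in low and 988 and 1359 in high CHIR with Cre, against 144 and 235 in low and 14.7 and 32.2 in high CHIR without it. The responses differed by 4.74 (SE 0.77, adjusted p = 0.0078), called without any 1 of the 8 libraries. With Ctnnb1 sgRNA the difference was 4.84 (SE 0.77, adjusted p = 0.00964), lost without the first GFP sgRNA library in low CHIR or the second Ctnnb1 sgRNA library of either dose. With the replicate block, Dkk1, Dkk3, Frzb, Lef1, Nkd2 and Znrf3 were also called for the Cre difference, Wnt2, Fzd4, Frzb, Trabd2b and Lef1 for the Ctnnb1 sgRNA difference and Dkk2 for the QKO difference. Of all genes, 3.13%, 1.4% and 0.857% were called with the block.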

How the results depend on the processing

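Of 162 counts of called ligands under other settings, 143 lay within 1.5 times the reported count. In wild-type NPCs, a pseudocount of 5 gave 2 for high against low CHIR, DESeq2, with no p-value for Wnt4, gave 1 for high against no CHIR, and only the groups compared gave 1 for no against low CHIR. The difference of CHIR responses gave 1 in place of 0 for Cre (pseudocount 5, DESeq2), for Ctnnb1 sgRNA (pseudocount 5, edgeR, DESeq2, only the groups compared) and for QKO (DESeq2). QKO in high CHIR gave 1 with edgeR and DESeq2. Only the groups compared gave 0 in Cre-removed cells and 1 with GFP sgRNA in the Tcf/Lef table. The replicate block gave 1 for all 3 differences (Wnt4, adjusted p = 0.0211 for Cre and 0.0172 for Ctnnb1 sgRNA), 1 for QKO in high CHIR and 2 within QKO cells, and changed no other count of ligands. Same-numbered libraries correlated at −0.0156 to 0.272 in the wild-type table, so there they share only a number. Over all genes, calls by limma, with the block and by DESeq2 came to 1350, 2661 and 1896 without Cre, 1260, 2562 and 1772 with GFP sgRNA in the β-catenin table, 55, 513 and 278 for Cre and 9, 21 and 30 for Ctnnb1 sgRNA in low CHIR, 1452, 2639 and 1960 and 854, 2133 and 1479 in high CHIR, 49, 128 and 95 within Cre-removed and 128, 447 and 319 within Cas9-removed cells, and 167, 526 and 381 and 87, 235 and 210 for their differences. In the Tcf/Lef table they came to 1, 16 and 22 for QKO in low CHIR, 404, 1181 and 859 in high CHIR, 403, 952 and 888 within QKO cells and 20, 136 and 158 for the difference. Of 720 counts over the pathway lists under other settings, 658 lay within 1.5 times the reported count and 62, of 34 results, did not. With 1 library left out 387 of 495 did, and 108, of 36 results, did not. Of 97 calls of named pathway genes, 16 were lost with only the groups compared, 7 with edgeR, 4 with a log2 threshold of 1, 3 with a pseudocount of 0.5, 2 with a pseudocount of 5, 2 with the block, and none with TMM or with DESeq2 where it gave a p-value. Only the groups compared lost Fzd4 and Wif1 in wild-type NPCs, Wls, Fzd10, Lrp6 and Apcdd1 without Cre, Ror1, Fzd10, Dkk1, Sfrp2 and Sp5 for Cre in high CHIR, Znrf3 within Cas9-removed cells, Wnt2 and Fzd4 for the Cre difference, Ror1 with GFP sgRNA in the Tcf/Lef table and Sp5 within QKO cells. Over all genes, for no against low CHIR, limma gave 865 and DESeq2 1784. Without the filter QKO in low CHIR gave 4, and TMM or a pseudocount of 0.5 gave 0 for Ctnnb1 sgRNA in low CHIR, where edgeR gave 6.

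With 1 library left out, the count of called ligands ran from 0 to 1 for Ctnnb1 sgRNA in high CHIR and for the Cre difference, and from 1 to 2 for GFP sgRNA in the Tcf/Lef table and for high against low and against no CHIR in wild-type NPCs. Directions that turned were all of uncalled values. For Wnt4 with Cre in low CHIR the range was −1.31 to 0.19. For Wnt5a it was −0.86 to 1.97 and −0.42 to 2.40 for wild-type high against low and no CHIR, −0.26 to 0.13 without Cre, −0.21 to 0.61 with GFP sgRNA, −0.45 to 0.0856 with Cre and −0.50 to 0.32 with Ctnnb1 sgRNA in low CHIR, −0.53 to 0.0279 within Cas9-removed cells, −0.67 to 0.24 for QKO in high CHIR and −0.22 to 0.68 for the QKO difference. For Wnt5b it was −0.18 to 0.59 without Cre, −0.52 to 0.23 with Cre in low CHIR, −0.51 to 0.21 within Cre-removed cells, −0.74 to 0.0314 for the Cre difference, −0.28 to 0.0509 with Ctnnb1 sgRNA in high CHIR, −0.40 to 0.45 with GFP sgRNA in the Tcf/Lef table, −0.61 to 0.24 and −0.74 to 0.0163 for QKO in low and high CHIR and −0.65 to 0.20 for the QKO difference. For Wnt7b it was −0.0655 to 0.69 and −0.39 to 0.37 for wild-type high against low and no CHIR, −0.0697 to 0.86 and −0.82 to 0.49 with Cre in low and high CHIR, −0.25 to 0.68 within Cre-removed cells and −1.22 to 0.0915 for the Cre difference. For Wnt6, no against low CHIR ran from −0.45 to 0.34, and edgeR gave 0.19. The cause was not tested.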
